A study of Mus with 18 samples.

Results

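Messenger RNA of 54 genes of mitosis and the mitotic spindle was followed across 6 treatment groups of RAW264.7, a cell line of mouse macrophages. The members were the rows of the deposited read-count table whose symbol stood in a list of 54 names. That list was chosen with earlier results of these data known. All 54 were found among 35510 genes in that table, and all 54 were among the 13482 genes with enough counts to be tested. Some, such as Sapcd2 with 7, 1 and 6 counts in the untreated libraries, reached that minimum through the groups in which they were high.

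The study sequenced total RNA of these cells in 18 libraries, 3 a group. One group had no treatment, and another was stimulated with LPS, the bacterial lipopolysaccharide that activates macrophages through the receptor TLR4. The other 4 groups had LPS first and then 1 of 4 agents that the series describes as sialic polymers, coded POx-SA, PPLG-SA and the related names PPLG-2V-SA and PPLG-4V-SA. Those groups are written LPS + POx-SA, LPS + PPLG-SA, LPS + PPLG-2V-SA and LPS + PPLG-4V-SA, so every polymer group also carried LPS, and no group used here had a polymer without it. The labels give no dose, no time and no meaning of the code names, and they do not say whether the 3 libraries of a group came from separate cultures. All p-values therefore measure the spread between these libraries, which may be technical, and doses and times could not be compared. Where 3 values follow one another for the PPLG polymers, the first is for PPLG-SA, the second for PPLG-2V-SA and the last for PPLG-4V-SA.

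A cell enters mitosis when the kinase Cdk1, bound to cyclin A or B, is freed of its inhibitory phosphates. Microtubules and motor proteins then build the spindle, kinetochores attach the chromosomes to it, and the spindle checkpoint holds back the anaphase-promoting complex (APC/C), a ubiquitin ligase, until every chromosome is attached. Destruction of securin and cyclin B starts anaphase, and a contractile ring splits the cell. Many of the genes involved are transcribed together late in the cell cycle by the factors Foxm1 and B-Myb with the MuvB complex, and are low in cells that have left the cycle, as macrophages can on activation. In RNA from whole cultures, fewer cells in division and less of these transcripts per cell cannot be told apart.

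Total counts were 9755591 to 19759549 per library, and the untreated libraries were the shallowest (9755591 to 10992859). Levels are given as CPM, the counts relative to a common library size with TMM scaling, or as the deposited FPKM where genes are compared with each other. A log2 fold change is given ± its standard error (SE), with 3 libraries a group, and an adjusted p is from edgeR's quasi-likelihood test, adjusted over the 13482 genes by the Benjamini-Hochberg method. A member was called higher or lower at an adjusted p below 0.05. All 12 macrophage identity genes of a marker list were detected in every group, and their summed level, here as CPM of library totals without TMM, was 9788 to 10733 CPM in untreated libraries, 7105 to 7768 CPM with LPS, 5908 to 7478 CPM with LPS + POx-SA and 5399 to 5582, 4878 to 5357 and 5824 to 6228 CPM with the 3 PPLG polymers. The largest single part of the untreated sum was Lyz2, a lysozyme gene, at a mean of 6308 CPM, and it fell with LPS and with each PPLG polymer over LPS. Counted by gene, 1 of the 12 rose and 6 fell with LPS, against 30.8% and 28.4% of all tested genes. With POx-SA against LPS 4 rose and 3 fell, against 22.2% and 24.1%. With the PPLG polymers against LPS 6, 5 and 7 rose, against 29.2%, 30.8% and 28.0%, and 3, 3 and 2 fell, against 30.7%, 30.2% and 27.1%. Unlike Lyz2, the marker Adgre1 rose with each PPLG polymer over LPS, by 3.58 ± 0.12, 2.90 ± 0.12 and 3.42 ± 0.12 on the log2 scale. The mitochondrially encoded share of counts was 4.19% to 4.83% in untreated libraries, 2.90% to 3.16% with LPS, 4.92% to 7.17% with LPS + POx-SA and 3.64% to 4.62% with the PPLG polymers. The part of either in the results was not tested. On the same scale without TMM, marker sums reached at most 9.46 CPM for fibroblasts, 1.34 CPM for epithelium and endothelium and 1.57 CPM for lymphocytes, and Epcam, Cdh1, Thy1, Cd3e, Ms4a1 and Nkg7 were at 0 in both untreated cells and LPS. Replicate 3 of LPS and replicate 3 of LPS + POx-SA stood apart from the other libraries of their groups in a way that followed gene length, and the main counts are given below without them.

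The members were lowest in untreated cells, higher with LPS, and highest with the 3 polymers whose names begin with PPLG. Summed over the 54 genes, the level was 929 ± 15.8 CPM (SD, n = 3) in untreated cells, 2385 ± 113 CPM with LPS and 1822 ± 289 CPM with LPS + POx-SA. The sum was 5041 ± 72.8 CPM with LPS + PPLG-SA, 5351 ± 46.7 CPM with LPS + PPLG-2V-SA and 4942 ± 81.2 CPM with LPS + PPLG-4V-SA. The LPS + POx-SA libraries ran from 1504 to 2069 CPM and the LPS libraries from 2272 to 2498 CPM, so the sums of these groups did not overlap, and the lowest sum of a PPLG library was 4878 CPM. Per length, the median member stood at 2.59 ± 0.155 FPKM (SD, n = 3) in untreated cells, 12.4 ± 0.914 FPKM with LPS and 31.2 ± 0.899 FPKM with LPS + PPLG-2V-SA. In untreated cells the highest members by mean FPKM were Incenp at 24.6, Cdca8 at 18.7 and Cdc25b at 16.9, and Sapcd2 was lowest at 0.15. With LPS + PPLG-2V-SA the order had changed, with Ube2c at 118, Pttg1 at 109 and Top2a at 104 FPKM highest and Sapcd2, at 4.94 FPKM, still lowest.

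**Figure D1:**
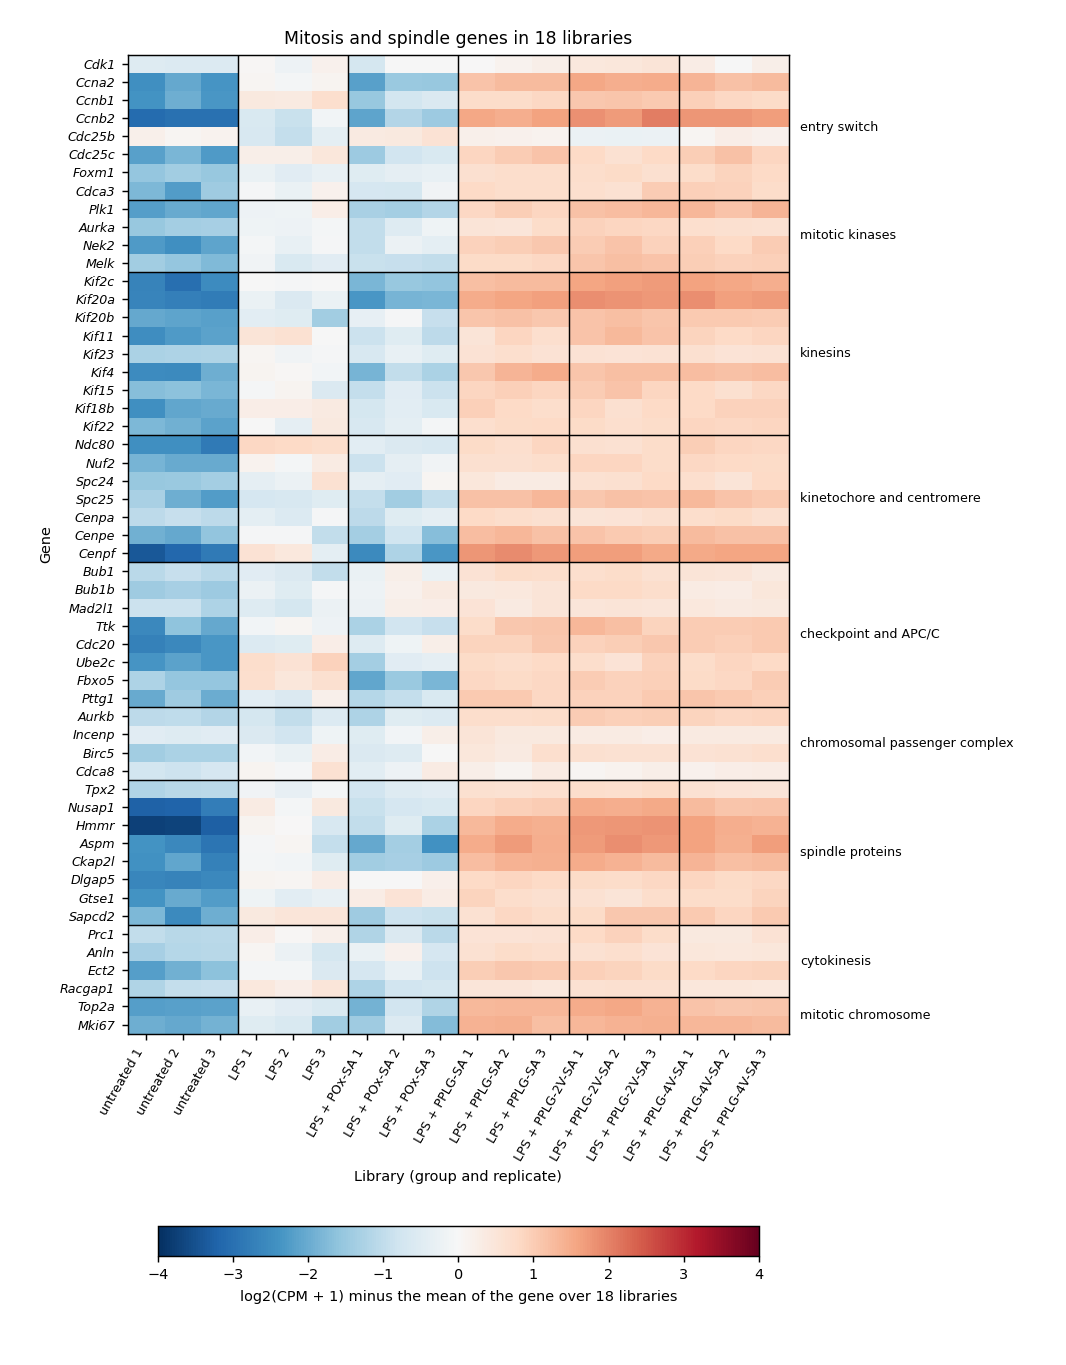
Levels of the 54 members (rows, grouped by role) in the 18 libraries (columns), as log2(CPM + 1) minus the mean of each gene over the 18 libraries. Blue is below and red above that mean. The 3 untreated columns are blue for nearly all rows and the 9 columns with a PPLG polymer are red, while Cdc25b, Incenp, Cdk1 and Cdca8 stay pale throughout.

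LPS against untreated cells asks what the stimulus did on its own. Of the 54 members 51 rose and 1, Cdc25b, fell, against 30.8% of all tested genes called higher and 28.4% called lower. The median log2 fold change of the members was 1.85 and that of all tested genes 0.02. The 3 libraries of each group did not overlap for 51 members that were higher and 1 that was lower, where 32.6% and 32.1% of all genes were so separated. Nusap1 rose 16.0-fold, Hmmr by 3.84 ± 0.25 and Sapcd2 by 3.83 ± 0.33 on the log2 scale, and the smallest rises were those of Bub1 (0.38 ± 0.14) and Mad2l1 (0.52 ± 0.14). Aurkb (0.36 ± 0.16, 95% interval 0.02 to 0.70) and Incenp (0.00 ± 0.15, interval -0.31 to 0.31) were not called. Without replicate 3 of LPS and of LPS + POx-SA, 51 were higher and 1 lower. Bub1 was the 1 called member that lost its call under some alternative analyses, and Aurkb and Incenp were each called under some.

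POx-SA after LPS was set against LPS alone to see what this polymer changed. Of the members 35 fell, 6 rose and 13 were not called, against 24.1% of all genes called lower and 22.2% called higher, and the median log2 fold change was -0.58 against 0.00 for all genes. The libraries did not overlap for 28 members that were lower and 4 that were higher, against 22.4% and 18.3% of all genes. Fbxo5, an inhibitor of the APC/C, was 6.81-fold lower, and Cenpf and Sapcd2 followed at -2.30 ± 0.28 and -1.84 ± 0.25. The 6 that rose were Cdc25b (1.11 ± 0.12), Gtse1 (0.71 ± 0.12), Mad2l1 (0.60 ± 0.14), Bub1 (0.58 ± 0.14), Incenp (0.39 ± 0.15) and Bub1b (0.37 ± 0.12). These counts depended on the analysis: a fit of the 2 groups alone called 21 lower and 2 higher, that fit with the replicate number as a block called 31 lower and 5 higher, and 18 of the 41 calls were lost in at least 1 alternative. Without the 2 libraries that stood apart, 37 were lower and 7 higher.

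Each PPLG polymer after LPS was set against the same 3 LPS libraries. With PPLG-SA 44 of 54 members rose, with PPLG-2V-SA 50 and with PPLG-4V-SA 46, and edgeR called 0 lower with any of them, also at an unadjusted p below 0.05, as DESeq2 and limma did. The shares of all tested genes called higher were 29.2%, 30.8% and 28.0%, and called lower 30.7%, 30.2% and 27.1%. Median log2 fold changes of the members were 0.96, 1.03 and 0.96, where those of all genes lay at 0.00, 0.03 and 0.02. Libraries did not overlap for 47, 51 and 49 members that were higher, against 32.8%, 34.0% and 32.7% of all genes, and for 0 that were lower, against 32.5%, 31.5% and 29.8%. Ccnb2, Kif20a and Mki67 had the largest changes with each of the 3 polymers, led by Ccnb2 with PPLG-2V-SA at 5.46-fold. Because the LPS libraries are shared, the 3 sets of values are given side by side and their likeness was not tested. Ndc80, Ube2c, Cdca8 and Racgap1 were called with none of the 3 polymers. Without replicate 3 of LPS and of LPS + POx-SA the counts were 46, 51 and 47 higher and 0 lower.

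**Figure D2:**
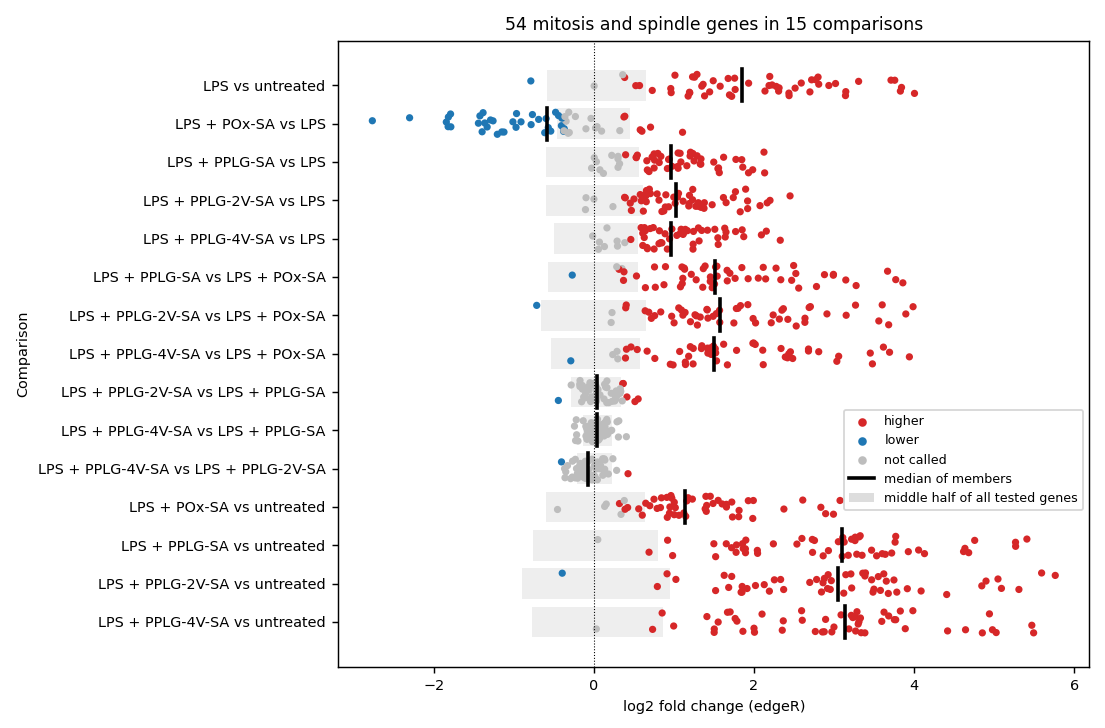
Log2 fold change (horizontal axis, edgeR) of the 54 members in each of the 15 comparisons (rows). Each point is a gene, coloured by its call at an adjusted p below 0.05, the black bar is the median of the members and the grey band spans the middle 50% of all tested genes. The members lie to the right for LPS against untreated and for each PPLG polymer against LPS, POx-SA or untreated, mostly to the left for POx-SA against LPS, and around 0 among the PPLG polymers.

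The entry switch had 8 members, namely the kinase Cdk1, its cyclins Ccna2, Ccnb1 and Ccnb2, the phosphatases Cdc25b and Cdc25c that remove its inhibitory phosphates, the transcription factor Foxm1 and Cdca3, a protein that promotes mitotic entry. With LPS 7 rose and 1 fell, with POx-SA against LPS 5 fell and 1 rose, and with the PPLG polymers against LPS 6, 8 and 6 rose. Counts here and in the roles below stand beside the same shares of all tested genes as above. These were 30.8% higher and 28.4% lower with LPS, and 22.2% and 24.1% with POx-SA against LPS. For the PPLG polymers against LPS they were 29.2%, 30.8% and 28.0% higher and 30.7%, 30.2% and 27.1% lower. Ccna2 stood at 7.89, 10.7 and 8.38 CPM in untreated libraries, 50.1, 44.8 and 51.7 with LPS and 9.87, 16.3 and 16.1 after LPS + POx-SA. It reached 105, 116 and 116 CPM after LPS + PPLG-SA, 141, 132 and 135 after LPS + PPLG-2V-SA and 124, 108 and 115 after LPS + PPLG-4V-SA. The untreated and LPS + POx-SA values of Ccna2 overlapped, the LPS values lay above both, and all 9 PPLG values lay above those. Its log2 fold change was 2.44 ± 0.16 for LPS against untreated (edgeR adjusted p = 2.31e-09), -1.79 ± 0.15 for POx-SA against LPS (adjusted p = 4.84e-08) and 1.48 ± 0.14 for PPLG-2V-SA against LPS (adjusted p = 8.43e-08).

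Ccnb1, the major mitotic cyclin, stood at 10.1, 14.1 and 10.6 CPM in untreated libraries, 75.3, 75.1 and 92.8 with LPS and 19.7, 34.5 and 38.2 after LPS + POx-SA. It stood at 97.7, 97.8 and 104 CPM after LPS + PPLG-SA, 122, 125 and 119.8 after LPS + PPLG-2V-SA, and 114, 104 and 99.7 after LPS + PPLG-4V-SA. LPS had already brought Ccnb1 close to the PPLG level: it was called for PPLG-2V-SA against LPS (0.59 ± 0.17, edgeR adjusted p = 0.00563) but not for PPLG-SA (95% interval -0.05 to 0.66) or PPLG-4V-SA (interval 0.03 to 0.74). Ccnb2, the other B-type cyclin, stood much lower than the PPLG level with LPS, at 12.1, 9.84 and 17.8 CPM against 58.3, 54.3 and 60.2 after LPS + PPLG-SA, and at 1.38, 1.52 and 1.56 CPM in untreated libraries. Its log2 fold changes against LPS were 2.12 ± 0.20, 2.45 ± 0.20 and 2.33 ± 0.20 with the 3 PPLG polymers and -1.15 ± 0.22 with POx-SA. Cdk1 itself moved little, at 39.7, 38.6 and 38.9 CPM without treatment, 59.5, 50.1 and 64.4 with LPS and 76.7, 78.7 and 82.8 after LPS + PPLG-2V-SA. It rose with LPS (0.57 ± 0.15, edgeR adjusted p = 0.00377) and with PPLG-2V-SA against LPS (0.45 ± 0.15, adjusted p = 0.0130), and the latter call was lost on the FPKM scale and without replicate 2 of LPS. Foxm1 rose with LPS (1.20 ± 0.10) and with each PPLG polymer over LPS (1.04, 1.06 and 1.17, each with an SE of 0.09), and with POx-SA its 95% interval against LPS was -0.22 to 0.15. Cdc25c and Cdca3 rose with LPS by 3.02 ± 0.26 and 1.93 ± 0.22 and fell with POx-SA by 1.36 and 0.48, and the Cdca3 call was among those that alternatives removed.

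Cdc25b went the other way. It stood at 69.8, 63.9 and 66.4 CPM in untreated libraries, 38.6, 31 and 46.3 with LPS and 78.5, 80.3 and 90.7 after LPS + POx-SA. It stood at 70.6, 69 and 67.3 CPM after LPS + PPLG-SA, 51.1, 49.8 and 51.1 after LPS + PPLG-2V-SA, and 63.5, 72.7 and 68 after LPS + PPLG-4V-SA. LPS had the lowest libraries and LPS + POx-SA the highest, and the groups with PPLG-SA and PPLG-4V-SA overlapped the untreated range. It fell with LPS (-0.79 ± 0.12, edgeR adjusted p = 1.62e-05), rose with POx-SA over LPS (1.11 ± 0.12, adjusted p = 6.47e-07) and rose with each PPLG polymer over LPS (0.84 ± 0.11, 0.39 ± 0.11 and 0.82 ± 0.11). Against untreated cells it was called higher with LPS + POx-SA (0.32) and was not called with PPLG-SA (95% interval -0.19 to 0.29) or PPLG-4V-SA (-0.21 to 0.27). With PPLG-2V-SA it was lower than untreated (-0.40 ± 0.11, edgeR adjusted p = 0.00480), a call that was lost with library totals in place of TMM and on the FPKM scale. Under those scalings it was instead called higher than untreated with PPLG-SA and with PPLG-4V-SA.

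The 4 mitotic kinases all rose with LPS, all fell with POx-SA against LPS, and all rose with each PPLG polymer against LPS. Plk1, which acts from centrosome maturation to cytokinesis, stood at 4.51, 5.26 and 4.92 CPM in untreated libraries, 21, 21.2 and 29.1 with LPS and 9.21, 8.92 and 10.2 after LPS + POx-SA. It stood at 43.9, 48.5 and 44.6 CPM after LPS + PPLG-SA, 55.4, 58.8 and 61.7 after LPS + PPLG-2V-SA and 62.3, 54.8 and 64.3 after LPS + PPLG-4V-SA. These values formed 4 levels with no overlap between untreated, LPS + POx-SA, LPS and the PPLG groups. Aurka, the centrosomal Aurora kinase, stood at 37.3, 36.7 and 39.9 CPM with LPS and 21, 29.3 and 37.7 after LPS + POx-SA, where the third replicate fell within the LPS range, and at 14.3, 15.9 and 16.4 CPM in untreated libraries. With the PPLG polymers Aurka lay between 60.1 and 81.0 CPM. Plk1 changed by 2.28 ± 0.14 with LPS, -1.33 ± 0.13 with POx-SA against LPS and 1.35 ± 0.12 with PPLG-4V-SA against LPS (edgeR adjusted p = 1.45e-09, 2.33e-07 and 4.78e-08). The falls of Aurka and of Nek2, a kinase of centrosome separation, with POx-SA were small (log2 fold changes -0.37 ± 0.14 and -0.38 ± 0.15, edgeR adjusted p = 0.0436 and 0.0485), and each lost its call in 10 of 18 alternatives. Melk, the remaining kinase, rose by 1.35 ± 0.14 with LPS and by 1.62 ± 0.12 with PPLG-2V-SA over LPS.

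The 9 kinesins are motor proteins of the spindle, and all 9 rose with LPS, with a median log2 fold change of 2.59. Against LPS, 8 of them fell with POx-SA, and 8, 9 and 9 rose with the PPLG polymers. Kif2c, which depolymerises microtubules at centromeres, stood at 1.63, 1.05 and 1.90 CPM in untreated libraries, 15.3, 14.9 and 15.4 with LPS and 3.64, 4.76 and 4.51 after LPS + POx-SA. It reached 36.8, 39.1 and 38.5 CPM after LPS + PPLG-SA, 48.8, 50.9 and 52.7 after LPS + PPLG-2V-SA and 49.8, 47.8 and 44 after LPS + PPLG-4V-SA. No 2 of the untreated, POx-SA, LPS and PPLG levels of Kif2c overlapped. Kif20a, which carries the chromosomal passenger complex to the central spindle, stood at 3.38, 3.04 and 2.90 CPM in untreated libraries, 21.7, 17.2 and 21.6 with LPS and 4.45, 6.42 and 6.63 after LPS + POx-SA. It stood at 75.5, 79.3 and 84.4 CPM after LPS + PPLG-SA, 96.7, 92.9 and 88.4 after LPS + PPLG-2V-SA, and 97.6, 83.8 and 87.8 after LPS + PPLG-4V-SA, and it had the largest difference between PPLG-2V-SA and POx-SA, at 15.8-fold. Kif23, a subunit of the centralspindlin complex of cytokinesis, covered a narrower range, from 27.4, 28.2 and 28.8 CPM in untreated libraries through 71.7, 61.5 and 65.1 with LPS and 43, 54.6 and 48.4 after LPS + POx-SA to 100.2 to 109 CPM with the PPLG polymers. Log2 fold changes for LPS against untreated were 3.31 ± 0.16 for Kif2c, 2.70 ± 0.16 for Kif20a and 1.23 ± 0.09 for Kif23 (edgeR adjusted p = 7.11e-11, 7.42e-10 and 1.03e-08).

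Kif11, the motor that pushes spindle poles apart, stood at 65.1, 68.2 and 44.2 CPM with LPS, where replicate 3 was lowest, against 7.26, 8.53 and 9.497 CPM in untreated libraries. It stood at 65, 82.3 and 71.4 CPM after LPS + PPLG-SA, 101, 111 and 101 after LPS + PPLG-2V-SA, and 84.6, 78.5 and 81.3 after LPS + PPLG-4V-SA. Kif11 was not called for PPLG-SA against LPS (95% interval -0.02 to 0.62) and was called for PPLG-2V-SA (0.81 ± 0.15) and PPLG-4V-SA (0.46 ± 0.15), and without replicate 3 of LPS the call for PPLG-4V-SA was lost. The 1 kinesin not called with POx-SA was Kif20b, a motor of the late spindle midzone, at 37.6, 45.9 and 24.3 CPM against 34.9, 33.6 and 17.5 with LPS (interval -0.12 to 0.76), and in both groups replicate 3 was lowest. Kif4 and Kif22, chromokinesins that bind chromosome arms, Kif15, which works beside Kif11, and Kif18b, which trims microtubules, rose with LPS by 1.68 to 2.72 on the log2 scale.

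The kinetochore and centromere genes, 7 in number, all rose with LPS, and 5 of them fell with POx-SA against LPS. Ndc80, whose protein makes the main contact with microtubules, stood at 3.01, 3.04 and 2.12 CPM in untreated libraries, 38, 37 and 35.2 with LPS and 15.3, 13.9 and 13 after LPS + POx-SA. It stood at 36.9, 34.4 and 39.3 CPM after LPS + PPLG-SA, 33.7, 33 and 35.8 after LPS + PPLG-2V-SA, and 42.9, 39.4 and 38.6 after LPS + PPLG-4V-SA. These 9 values overlapped the LPS range or lay just above and below it. Ndc80 thus rose by 3.76 ± 0.13 with LPS (edgeR adjusted p = 2.00e-12) and fell by 1.38 with POx-SA (adjusted p = 1.52e-08), while its 95% intervals against LPS with the 3 PPLG polymers were -0.21 to 0.21, -0.31 to 0.10 and -0.08 to 0.34. The other 3 subunits of the Ndc80 complex were called higher with PPLG polymers, though their difference from Ndc80 was not tested. Spc25 stood at 9.17, 9.25 and 10.6 CPM with LPS and 35.6, 35.7 and 39.6 after LPS + PPLG-SA and rose with each PPLG polymer (1.93, 1.83 and 1.85, each with an SE of 0.17). Nuf2 rose by 0.53 ± 0.14, 0.69 ± 0.14 and 0.67 ± 0.14, and Spc24 was called with PPLG-2V-SA (0.65 ± 0.20) and PPLG-4V-SA (0.63 ± 0.20) but not with PPLG-SA (interval -0.11 to 0.75).

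Cenpa, the histone variant that marks centromeres, stood at 19.7, 21.6 and 19.8 CPM in untreated libraries, 31.8, 28.6 and 40.8 with LPS and 19.7, 29.6 and 32.5 after LPS + POx-SA, and the last 2 groups overlapped. It stood at 74.4, 69.2 and 66.2 CPM after LPS + PPLG-SA, 60.2, 62 and 66.4 after LPS + PPLG-2V-SA, and 69.1, 71.9 and 66.5 after LPS + PPLG-4V-SA, all above the LPS values. Cenpa rose by 0.73 ± 0.16 with LPS and by 1.05 ± 0.15 with PPLG-SA over LPS (edgeR adjusted p = 6.73e-04 and 1.11e-05). Cenpf, a large protein of the outer kinetochore, stood at 2.51, 3.15 and 4.13 CPM in untreated libraries, 53.5, 48.7 and 27.1 with LPS and 5.27, 14.6 and 6.42 after LPS + POx-SA, and its 9 PPLG values ran from 103 to 136 CPM. The spread was wide within LPS and LPS + POx-SA, yet those groups did not overlap. Cenpe, the kinesin that brings chromosomes to the spindle equator, stood at 72.6, 73.1 and 37.7 CPM with LPS and 28.7, 42.5 and 22.3 after LPS + POx-SA, which overlapped though the value was lower in each of the 3 numbered pairs, and its fall of 0.97 ± 0.22 (edgeR adjusted p = 0.00164) was lost when only the 2 groups were fitted without the replicate block and held in that fit with it.

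The checkpoint and APC/C genes split into parts with POx-SA. All 8 rose with LPS, but with POx-SA against LPS 4 fell (Ttk, Ube2c, Fbxo5 and Pttg1), 3 rose (Bub1, Bub1b and Mad2l1) and Cdc20 was not called (95% interval -0.31 to 0.50). Ube2c, the ubiquitin-conjugating enzyme of the APC/C, stood at 7.77, 9.23 and 7.82 CPM in untreated libraries, 71.3, 65.4 and 83.2 with LPS and 16.3, 31.4 and 34.1 after LPS + POx-SA. It stood at 74.5, 72.6 and 77.6 CPM after LPS + PPLG-SA, 72.2, 64 and 83.6 after LPS + PPLG-2V-SA, and 74.1, 80.2 and 76.3 after LPS + PPLG-4V-SA, within or close to the LPS range, and the intervals of its log2 fold change against LPS were -0.35 to 0.41, -0.38 to 0.38 and -0.31 to 0.45. Fbxo5, also known as Emi1, stood at 4.13, 3.15 and 3.13 CPM in untreated libraries, 18.4, 15.5 and 17.8 with LPS and 1.86, 3.33 and 2.40 after LPS + POx-SA. In the PPLG groups Fbxo5 lay between 19.6 and 23.3 CPM, just above the LPS values. Its LPS + POx-SA values overlapped those of untreated cells (interval against untreated -0.87 to -0.04, not called), and it was 1 of 2 members whose untreated mean was not the lowest. Pttg1, or securin, which holds separase inactive, stood at 5.64, 9.00 and 5.81 CPM in untreated libraries, 19, 17.3 and 29.99 with LPS, 11.3, 12.8 and 16.9 after LPS + POx-SA and 47.2 to 57.8 CPM with the PPLG polymers.

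Bub1, a checkpoint kinase, stood at 46.3, 51.1 and 45.9 CPM in untreated libraries, 72.4, 64.9 and 49.7 with LPS and 80.8, 116 and 82.1 after LPS + POx-SA, so that every POx-SA value lay above every LPS value. Bub1b, its relative BubR1, stood at 132, 112 and 150.4 CPM with LPS and 136, 177 and 198 after LPS + POx-SA, and these groups overlapped. Mad2l1, the checkpoint protein that binds Cdc20, stood at 28.9, 25 and 34.6 CPM with LPS and 35.3, 49 and 49.7 after LPS + POx-SA, with no overlap. The log2 rises of Bub1, Bub1b and Mad2l1 were 0.58 ± 0.14, 0.37 ± 0.12 and 0.60 ± 0.14 (edgeR adjusted p = 0.00244, 0.0194 and 0.00171), and each was lost when only the 2 groups were fitted. With the replicate block added to that fit the calls of Bub1 and Mad2l1 held and that of Bub1b did not. With the PPLG polymers Bub1 stood at 127 to 165 CPM and Mad2l1 at 53.7 to 60.1 CPM, above all POx-SA values, while Bub1b at 192 to 275 CPM overlapped them. Ttk, the kinase at the head of the checkpoint, fell by 0.97 ± 0.19 with POx-SA and rose by 1.09 to 1.27 with the PPLG polymers against LPS. Cdc20, the activator that the checkpoint holds back, stood at 4.63, 5.14 and 6.37 CPM in untreated libraries, 24, 25.4 and 43.2 with LPS, 25.1, 31.6 and 42.2 after LPS + POx-SA and 67.8 to 77.7 CPM with the PPLG polymers.

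The chromosomal passenger complex corrects faulty attachments, and 2 of its 4 genes were called with LPS, with a median log2 fold change of 0.69, the lowest of the 9 roles. Birc5, or survivin, stood at 11.3, 12.5 and 12.4 CPM in untreated libraries, 28.8, 25.7 and 38.7 with LPS and 20.6, 21.7 and 30.9 after LPS + POx-SA. It stood at 43.3, 40.4 and 50.6 CPM after LPS + PPLG-SA, 49.3, 48.8 and 48.6 after LPS + PPLG-2V-SA, and 46.9, 48.2 and 50.3 after LPS + PPLG-4V-SA. Birc5 rose by 1.36 ± 0.17 with LPS and by 0.65 ± 0.15 with PPLG-2V-SA over LPS (edgeR adjusted p = 1.94e-06 and 0.00109). Incenp, the scaffold of the complex, stood at 101, 97.1 and 102 CPM in untreated libraries, 94.4, 82.4 and 124 with LPS and 101, 129 and 163 after LPS + POx-SA, and these 3 groups overlapped. With the PPLG polymers Incenp lay between 169.7 and 199 CPM, above all other libraries, and it rose by 0.92 ± 0.15 with PPLG-SA over LPS (adjusted p = 4.22e-05). Aurkb, the kinase of the complex, stood at 15.7, 15.8 and 14.3 CPM in untreated libraries, 20.1, 16.2 and 22.4 with LPS and 13.7, 23.4 and 22.3 after LPS + POx-SA, and reached 54.2 to 67.5 CPM with the PPLG polymers. Aurkb was called higher with each PPLG polymer against LPS (1.497 ± 0.15, 1.77 ± 0.15 and 1.64 ± 0.15), against LPS + POx-SA and against untreated cells. In the main analysis Aurkb was not called for LPS against untreated or for LPS + POx-SA against either. Cdca8, or borealin, rose with LPS (1.01 ± 0.18, 36.1, 33.9 and 38.1 to 65.5, 59.4 and 93.2 CPM). In the main analysis it was called in none of the comparisons of a polymer with LPS or of a PPLG polymer with POx-SA.

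**Figure D3:**
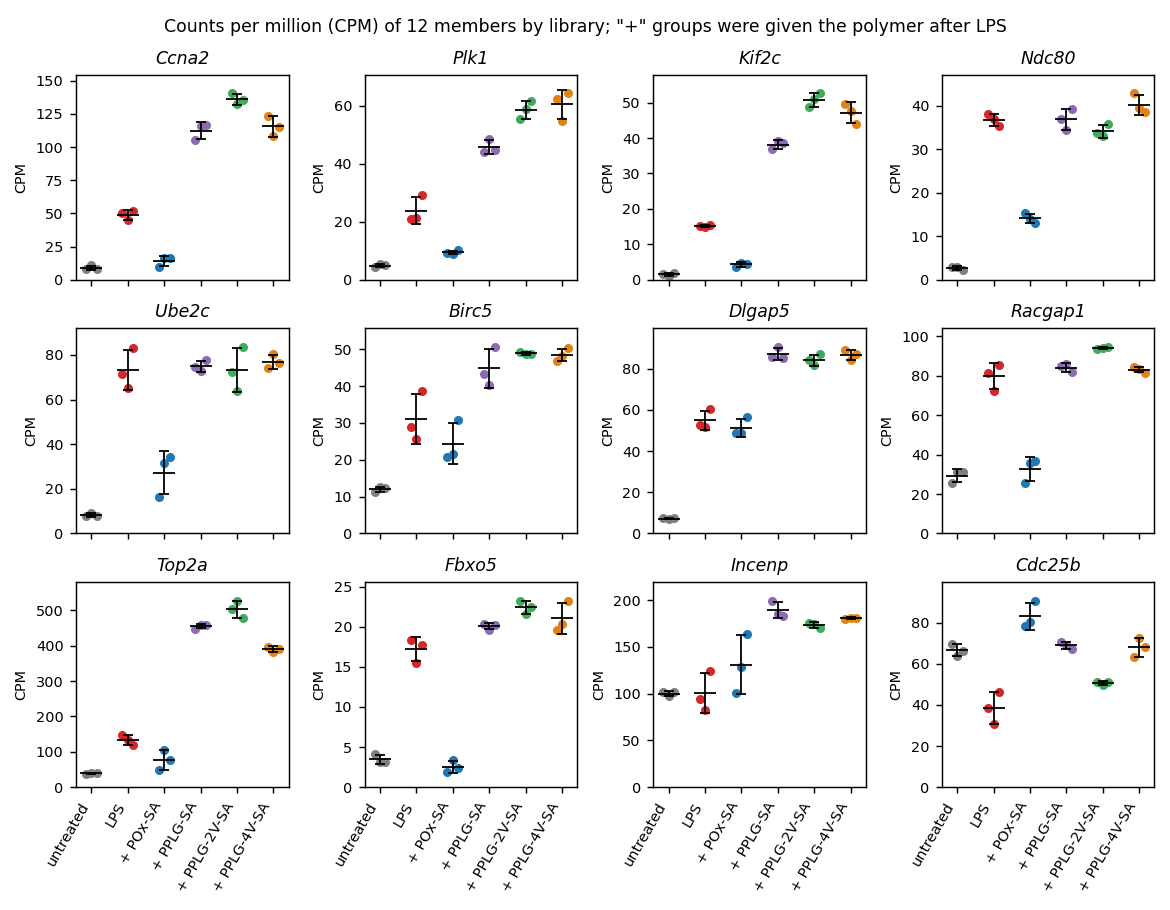
CPM (vertical axes, linear from 0) of 12 members in the 6 groups. Each coloured point is a library, the black dash the mean and the bar the SD of 3 libraries. Ccna2, Plk1, Kif2c and Top2a step up from LPS to the PPLG polymers, Ndc80, Ube2c and Racgap1 are about as high with LPS as with the PPLG polymers, Fbxo5 is lowest with LPS + POx-SA, and Cdc25b is lowest with LPS.

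The 8 spindle proteins all rose with LPS and held its largest changes, with a median log2 fold change of 2.85. Nusap1, which bundles spindle microtubules, stood at 1.00, 1.05 and 1.79 CPM in untreated libraries, 22.4, 16.7 and 23.5 with LPS and 9.06, 10.7 and 11.2 after LPS + POx-SA. It stood at 33.1, 35.6 and 36.6 CPM after LPS + PPLG-SA, 51, 50.6 and 52.9 after LPS + PPLG-2V-SA, and 43.8, 39.1 and 39.9 after LPS + PPLG-4V-SA, and no 2 of these 6 groups overlapped. Hmmr, a spindle protein that also binds hyaluronan, stood at 2.13, 2.22 and 3.35 CPM in untreated libraries, 44.5, 40.9 and 26.1 with LPS, 19.97, 29.1 and 16.4 after LPS + POx-SA and 137, 141 and 143 after LPS + PPLG-2V-SA. Hmmr was 54.3-fold higher with LPS + PPLG-2V-SA than in untreated cells, the largest fold of any member in any of the 15 comparisons. Dlgap5, which stabilises kinetochore fibres, stood at 7.26, 6.89 and 7.37 CPM in untreated libraries, 52.9, 51.6 and 60.3 with LPS, 48.6, 48.7 and 56.4 after LPS + POx-SA and 81.7 to 90.6 CPM with the PPLG polymers. It was the 1 spindle protein not called with POx-SA (95% interval -0.28 to 0.08). Tpx2, an activator of Aurka, stood at 53.1, 56.9 and 58.1 CPM in untreated libraries, 111, 97.8 and 118 with LPS, 72.2, 86 and 89.5 after LPS + POx-SA and 179 to 210.2 CPM with the PPLG polymers.

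Gtse1, a microtubule protein that restrains Kif2c, rose with POx-SA while 6 of the other spindle proteins fell. Its values were 3.13, 4.32 and 3.58 CPM in untreated libraries, 18.3, 15.4 and 16.7 with LPS, 25.6, 30.8 and 25.9 after LPS + POx-SA and 29.7 to 39.7 CPM with the PPLG polymers. Every POx-SA value of Gtse1 lay above every LPS value (0.71 ± 0.12, edgeR adjusted p = 1.09e-04), and the POx-SA and PPLG values overlapped. Aspm, which focuses spindle poles, stood at 20.01, 22.2 and 10.2 CPM with LPS, 4.31, 7.48 and 3.10 after LPS + POx-SA and 58.1 to 78.7 CPM with the PPLG polymers, and replicate 3 was the lowest library in both of the first groups. Sapcd2, a regulator of spindle orientation, was the member with the fewest counts, at 0.877, 0.117 and 0.670 CPM in untreated libraries and 7.49, 8.15 and 8.11 with LPS, so its fold change of 3.83 ± 0.33 rests on 14 counts in the untreated group. Ckap2l, a spindle-bound protein, rose by 2.44 ± 0.17 with LPS, fell by 1.26 with POx-SA and rose by 1.65 ± 0.13 with PPLG-2V-SA.

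The 4 cytokinesis genes rose with LPS. Racgap1, the GTPase-activating subunit of centralspindlin, stood at 25.6, 31.1 and 31.3 CPM in untreated libraries, 81.6, 72.5 and 85.6 with LPS and 25.5, 35.6 and 36.8 after LPS + POx-SA. It stood at 84.8, 86 and 81.7 CPM after LPS + PPLG-SA, 93.7, 94.2 and 94.7 after LPS + PPLG-2V-SA, and 84.3, 83.2 and 81.7 after LPS + PPLG-4V-SA. LPS + POx-SA overlapped the untreated range, and LPS overlapped the PPLG-SA and PPLG-4V-SA ranges. Racgap1 rose by 1.45 ± 0.12 with LPS and fell by 1.29 ± 0.12 with POx-SA (edgeR adjusted p = 3.13e-08 and 1.58e-07), and against untreated its 95% interval with LPS + POx-SA was -0.10 to 0.41. Prc1, which bundles the central spindle, likewise fell by 1.12 ± 0.13 with POx-SA, to 23.6, 37.2 and 26.2 CPM from 67.7, 57.4 and 64.4, and was not called against untreated (interval -0.15 to 0.42). Anln, which links actin in the contractile ring, and Ect2, which activates RhoA there, were not called with POx-SA (intervals -0.34 to 0.42 and -0.70 to -0.05). Both were higher with LPS (0.96 ± 0.19 and 1.76 ± 0.17) and higher again with PPLG-SA over LPS (0.93 ± 0.18 and 1.29 ± 0.15).

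The 2 genes of the mitotic chromosome had some of the largest rises with the PPLG polymers. Top2a, the topoisomerase that untangles sister chromatids, stood at 38.1, 39.7 and 40.2 CPM in untreated libraries, 148, 132 and 119 with LPS and 48, 106 and 77.6 after LPS + POx-SA. It reached 448, 458 and 459 CPM after LPS + PPLG-SA, 504, 527 and 479 after LPS + PPLG-2V-SA, and 397, 383 and 391 after LPS + PPLG-4V-SA, and rose by 1.77 ± 0.18, 1.92 ± 0.18 and 1.55 ± 0.18 over LPS (edgeR adjusted p = 2.70e-07, 7.69e-08 and 1.35e-06). Mki67, the Ki-67 protein that coats mitotic chromosomes and serves as a marker of proliferating cells, stood at 68.1, 64.7 and 71.3 CPM in untreated libraries, 190.4, 176 and 101 with LPS and 99, 185 and 79.7 after LPS + POx-SA. It stood at 711, 714 and 623 CPM after LPS + PPLG-SA, 668, 711 and 714 after LPS + PPLG-2V-SA, and 678, 673 and 639 after LPS + PPLG-4V-SA, above all other libraries. Mki67 was not called with POx-SA (95% interval -0.86 to 0.14), where the LPS and POx-SA ranges overlapped.

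**Figure D4:**
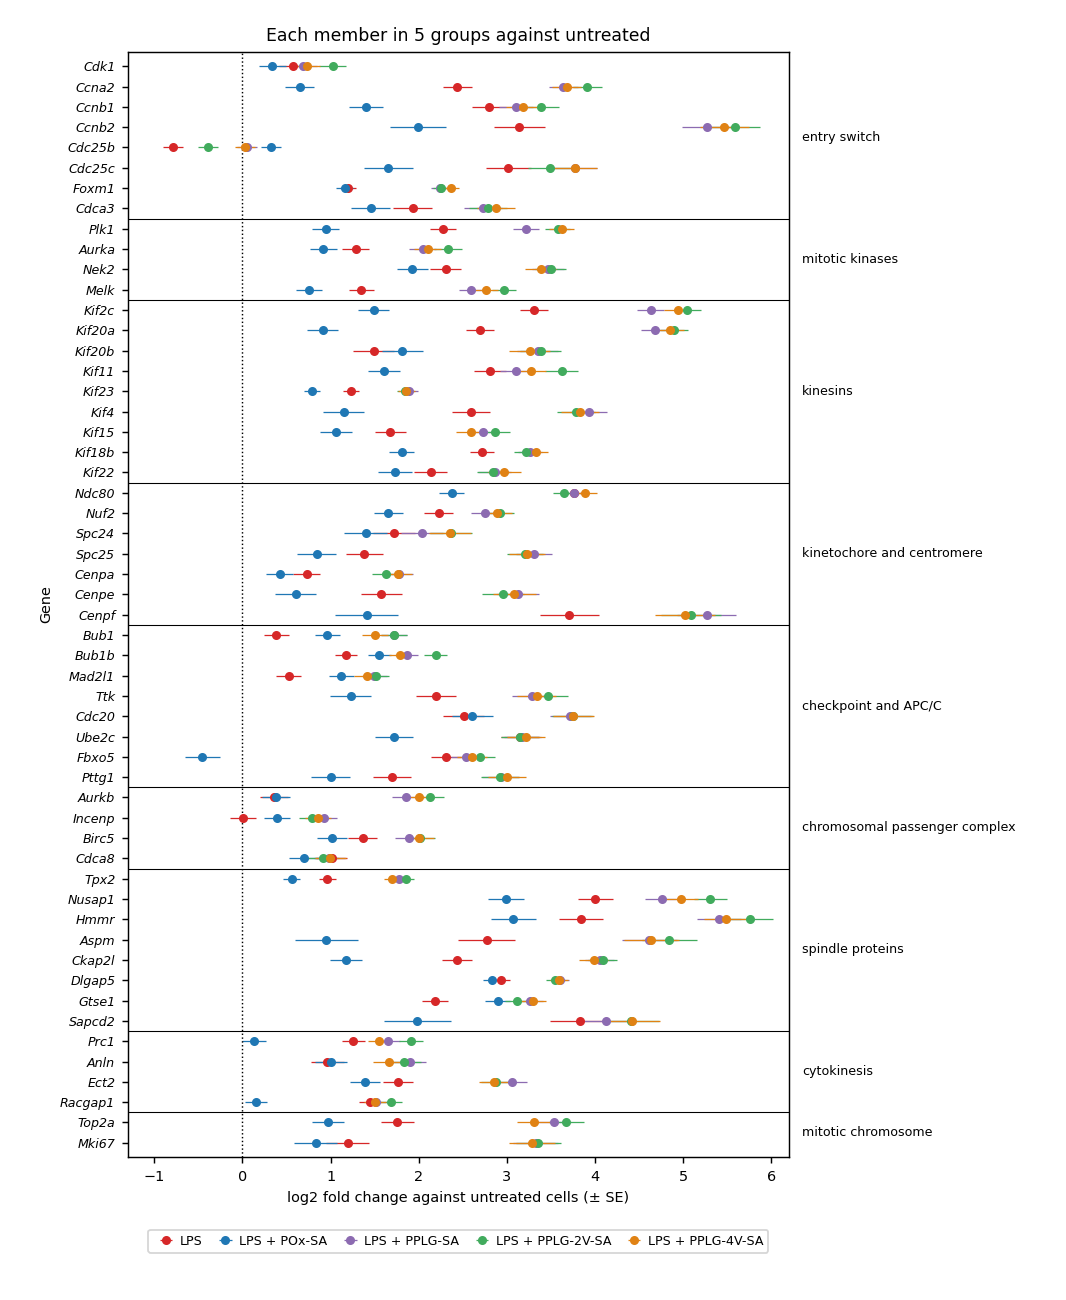
Log2 fold change against untreated cells (horizontal axis, points ± SE from edgeR) of each member (rows, grouped by role) in the 5 groups given LPS, with or without a polymer. For most members LPS + POx-SA lies nearest to 0, LPS further right and the 3 PPLG groups together furthest right. Cdc25b runs from -0.79 with LPS to 0.32 with LPS + POx-SA, the lowest and highest of its 5 points, and for Ndc80, Ube2c and Racgap1 the LPS point sits close to the PPLG points.

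The polymers were compared directly in 6 pairs. In each comparison of a PPLG polymer with POx-SA most members were higher with the PPLG polymer: 51 with PPLG-SA, 51 with PPLG-2V-SA and 50 with PPLG-4V-SA, against 28.3%, 32.4% and 29.6% of all tested genes. The median log2 fold changes of the members were 1.51, 1.57 and 1.504. Kif20a (3.77 ± 0.14, 3.99 ± 0.14 and 3.94 ± 0.14), Cenpf (3.86 ± 0.29, 3.68 ± 0.29 and 3.62 ± 0.29) and Aspm (3.67 ± 0.27, 3.90 ± 0.27 and 3.69 ± 0.27) differed most. The 1 member lower with each PPLG polymer was Cdc25b (-0.27 ± 0.11, -0.71 ± 0.11 and -0.29 ± 0.11), against 29.5%, 31.6% and 28.3% of all genes called lower, and its calls with PPLG-SA and PPLG-4V-SA were lost in several alternatives. Cdca8 was not called in any of the 3 pairs (95% intervals -0.07 to 0.64, -0.14 to 0.57 and -0.06 to 0.65), though in each pair some alternative analyses did call it. With the p-values adjusted over all 15 comparisons together, the numbers of members called higher were 51, 51 and 50. The labels do not say at which doses or times POx-SA and the PPLG polymers were given.

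Among the 3 PPLG polymers few members were called. PPLG-2V-SA against PPLG-SA had 5 members higher and 1 lower, against 14.7% and 13.2% of all tested genes. The 5 were Nusap1 (0.55 ± 0.13, edgeR adjusted p = 0.00346), Kif11 (0.51 ± 0.15, adjusted p = 0.0182), Kif2c (0.41 ± 0.10, adjusted p = 0.00687), Melk (0.37 ± 0.11, adjusted p = 0.0219) and Plk1 (0.36 ± 0.11, adjusted p = 0.0262), and Cdc25b was lower (-0.44 ± 0.11, adjusted p = 0.00736). This count depended on the scaling and the fit: library totals in place of TMM gave 13 higher, and a fit of these 2 groups alone gave 16 higher and 7 lower. PPLG-4V-SA against PPLG-SA had 0 called by edgeR, with 2 members at an unadjusted p below 0.05 and 1 called higher by DESeq2, against 1.08% of all genes called higher and 0.579% called lower. The 2 members at an unadjusted p below 0.05 were Plk1 (95% interval 0.16 to 0.65) and Kif2c (0.09 to 0.53), both higher with PPLG-4V-SA, and the median over the members was 0.03, as it was over all genes. PPLG-4V-SA against PPLG-2V-SA had Cdc25b higher (0.43 ± 0.11, edgeR adjusted p = 0.0190) and Bub1b lower (-0.41 ± 0.12, adjusted p = 0.0398), against 7.53% and 4.47% of all genes. Each call was lost on leaving out any 1 of several single libraries, and a fit of these 2 groups alone called 3 higher and 14 lower. Of the 54 members 30 had their highest mean with PPLG-2V-SA, 12 with PPLG-4V-SA, 10 with PPLG-SA and 2 elsewhere (Cdc25b and Cdca8), where 22.7%, 6.96%, 10.8% and 59.6% of all genes did.

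Every group given LPS was also set against untreated cells, with the untreated libraries shared. With LPS + POx-SA 49 members were higher and 0 lower, with 1 lower at an unadjusted p below 0.05 and 0 by DESeq2, against 30.4% and 27.9% of all genes called higher and lower, with a median log2 fold change of 1.13 where LPS alone had 1.85. With LPS + PPLG-SA 53 were higher and 0 lower (35.1% and 32.8% of all genes), with LPS + PPLG-2V-SA 53 and 1 (38.2% and 35.8%) and with LPS + PPLG-4V-SA 53 and 0 (36.7% and 33.6%). The medians were 3.10, 3.04 and 3.14. Cdk1, Fbxo5, Aurkb, Prc1 and Racgap1 were the 5 members not called with LPS + POx-SA against untreated. The order of the group means was untreated, LPS + POx-SA, LPS and then all 3 PPLG groups for 40 members, an order that 7.18% of all tested genes had. All 9 PPLG libraries lay above all 9 others for 44 members and for 11.5% of genes. The 10 members without that separation were Cdk1, Cdc25b, Kif11, Ndc80, Spc24, Bub1b, Ube2c, Cdca8, Gtse1 and Racgap1. The LPS + POx-SA mean lay between the untreated and LPS means for 43 members and for 20.6% of genes.

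Replicate 3 of LPS departed from replicates 1 and 2 in a way that followed transcript length. Over the 54 members the Spearman correlation between length, as implied by the deposited counts and FPKM, and the deviation of that library was -0.79, and over 12423 genes it was -0.64. For replicate 3 of LPS + POx-SA the values were -0.73 and -0.58, and for replicate 3 of LPS + PPLG-2V-SA they were -0.63 and -0.52. These correlations are across genes of 1 library, which are not independent replicates. Of the 10 longest members (4.61 to 11.6 kb, with Cenpf, Mki67 and Aspm the longest) 9 were lower in replicate 3 of LPS, by a median of 0.75 on the log2 scale, and of the 10 shortest (0.568 to 1.54 kb, with Pttg1, Ube2c and Birc5 the shortest) all 10 were higher, by 0.46. In replicate 3 of LPS + POx-SA 8 of the 10 longest were lower, by a median of 0.52, and all 10 shortest were higher, by 0.47. The part of this pattern in the results was not tested beyond the counts given without these libraries.

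**Figure D5:**
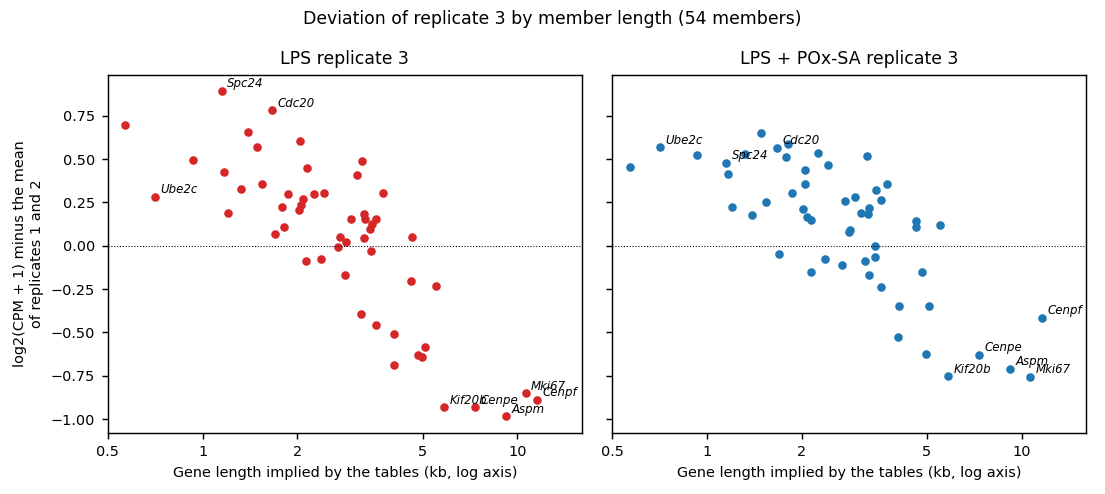
Deviation of replicate 3 from the mean of replicates 1 and 2 (vertical axes, log2(CPM + 1)) against the length of each of the 54 members (horizontal axes, kb, log scale), for LPS (left) and LPS + POx-SA (right). Long members such as Cenpf, Mki67 and Aspm lie below 0 and short ones such as Ube2c above it in both libraries.

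Other genes of the same machinery were read from lists that did not overlap the members. Like the members, these lists were chosen with earlier results of these data known, so their counts are not independent support. Of all tested genes, 30.8% were called higher and 28.4% lower with LPS, and 22.2% and 24.1% with POx-SA against LPS. With the PPLG polymers against LPS 29.2%, 30.8% and 28.0% were called higher and 30.7%, 30.2% and 27.1% lower. Of 13 condensin and cohesin regulators, which compact chromosomes and hold sister chromatids together, 12 rose and 1 fell with LPS, 6 fell with POx-SA against LPS, and 12 rose with each PPLG polymer. Espl1, the protease separase, changed by 2.28 ± 0.11 with LPS, -0.63 ± 0.10 with POx-SA and 1.69 ± 0.09 with PPLG-2V-SA. Of 34 other kinetochore and centromere proteins 24 rose and 2 fell with LPS, and with POx-SA 11 rose and 5 fell, where 6 members rose and 35 fell. Among those that rose with POx-SA were Spdl1, an adaptor of the motor dynein at kinetochores (1.54 ± 0.18), Cenpw (1.42 ± 0.15) and Dsn1, a subunit of the Mis12 complex (1.02 ± 0.12). With the PPLG polymers 20, 21 and 21 of the 34 rose, and Zw10, which recruits dynein, fell with each (-0.79 ± 0.09, -0.99 ± 0.09 and -1.08 ± 0.09). Of 32 other mitotic regulators and spindle proteins 26 rose and 2 fell with LPS, 6 rose and 13 fell with POx-SA, and 26, 29 and 29 rose with the PPLG polymers. Wee1, the kinase that opposes the Cdc25 phosphatases, fell with POx-SA (-1.09 ± 0.19), and Ckap2, a microtubule stabiliser, rose with each PPLG polymer (1.82 ± 0.12, 1.79 ± 0.11 and 1.69 ± 0.11). The median log2 fold changes of the 3 lists were 1.40, 1.03 and 1.54 for LPS against untreated and -0.27, 0.19 and -0.27 for POx-SA against LPS.

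Some members are less certain as single genes, because the strand setting of the counting is not given in the sources used here. As annotated by RefSeq, 8 members overlap another coding gene: Ccna2 (Exosc9), Foxm1 (Tex52), Aurka (Cstf1), Kif20a (Brd8 and Cdc23), Cdc20 (Elovl1), Nusap1 (Oip5), Prc1 (Rccd1) and Anln (9530077C05Rik). Another 4, Ccnb1, Ccnb2, Kif4 and Kif22, have a named pseudogene copy with which reads could be shared.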

How the data were processed

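The data are 18 RNA-seq libraries of RAW264.7 cells in 6 groups, 3 libraries a group, grouped by the treatment their labels give. The authors deposited 2 tables of the whole series: raw read counts for 35510 genes and FPKM values for 22384 genes. Deposited counts carried no normalization, and the deposited FPKM values are scaled to gene length and library size, per the file headers. Per the submitters' processing notes the genome build was GRCm39 and CASAVA was used. Not given in the sources used here are the aligner, the read counter and whether it used strand. Every sample column of both tables matched 1 library, and 0 columns had no sample.

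The members and all gene lists were chosen with earlier results of these data known. Genes were kept by edgeR's filterByExpr (minimum count 10, minimum total 15), which left 13482. Counts were scaled by TMM (factors 0.812 to 1.15) and fitted in 1 quasi-likelihood model of all 18 libraries with a term per group (edgeR 4.0.16 in R 4.3.3, 12 residual degrees of freedom). The 15 comparisons of the 6 groups were adjusted by Benjamini-Hochberg at 0.05 within each comparison, and once over all 15 together. SEs were taken from the F statistic, as the absolute log2 fold change over the root of F. The code was checked on simulated counts with known changes. Alternatives used DESeq2 1.42.0 and limma 3.58.1 on log2(FPKM + 1) and log2(FPKM + 0.1), a scale that understates changes of low genes, other scalings and filters, 2-group fits, a replicate block and libraries left out. Tables were made with pandas 2.3.3 and scipy 1.17.1, and plots with matplotlib 3.10.9.

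Genes named with their values were the leading members of each role, those with the largest change in a comparison, those moving against most members, and those not called. Overlapping genes and pseudogene copies come from a RefSeq table of GRCm38.p6, in which all 54 members matched by symbol. Its coordinates are not printed because the builds differ.

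Same-numbered libraries correlated above 0.1 in their deviations from the group means in 15 of 45 pairs. All 3 pairs did so for LPS with LPS + POx-SA and for LPS with LPS + PPLG-2V-SA. The largest correlation was 0.91, for replicate 3 of LPS with replicate 3 of LPS + POx-SA, the libraries that followed gene length. Deviations of 3 libraries from their own mean depend on each other, so the 3 pairs are not separate evidence. Whether the numbers pair libraries therefore could not be told, and the number was used as a block in alternative fits only. No 2 libraries of a group agreed within sampling noise.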

Additional observations from a re-analysis of the deposited data

How the results depend on the processing

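The members' counts for LPS against untreated and for the PPLG polymers against LPS, and the counts called higher for the PPLG polymers against POx-SA or untreated, stayed within 1.5 times of the values given under every alternative run. Of the main summary values, 461 stayed on their side and within range and 67 moved. Of the other values scored, 2061 stayed the same, 32 moved, 46 were weaker and 33 stronger. No direction was reversed. For POx-SA against LPS a fit of the 2 groups alone gave 2 higher and 21 lower, and that fit with the replicate block 5 higher and 31 lower. The replicate block in the fit of all libraries gave 6 higher and 37 lower there and 50 higher and 0 lower for PPLG-2V-SA against LPS, and changed no other call count by over 1.5 times. The 2-group fit with the block was chosen after seeing the data. Over all groups 7 of 18 libraries correlated best with their own number. For PPLG-SA against POx-SA the count called lower was 0 with p-values adjusted over all 15 comparisons, with library totals, with no filter, on both FPKM scales, in the 2-group fit with and without the block, and 0 to 1 on leaving out 1 library. For PPLG-4V-SA against POx-SA it was 0 with library totals, on both FPKM scales and in both 2-group fits, and 0 to 1 on leaving out 1 library.

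For PPLG-2V-SA against PPLG-SA the count called higher was 13 with library totals, 3 with no filter, 12 with FPKM + 1, 9 with FPKM + 0.1, 16 in the 2-group fit and 17 in that fit with the replicate block, where 7 and 7 were lower. It was 2 to 5 on leaving out 1 library: 2 without replicate 1 of LPS + PPLG-SA or replicate 2 of LPS + PPLG-2V-SA, and 3 without replicate 3 of either. For PPLG-4V-SA against PPLG-SA it was 2 with p-values adjusted over all 15 comparisons, 1 with library totals, 1 with DESeq2, 2 with FPKM + 1, 1 with FPKM + 0.1, 4 in the 2-group fit with 5 lower, and 3 with the block with 5 lower. For PPLG-4V-SA against PPLG-2V-SA the count called lower was 3 with p-values adjusted over all 15 comparisons, 3 with library totals, 3 with DESeq2, 3 with FPKM + 1, 2 with FPKM + 0.1, 14 in the 2-group fit with 3 higher, and 12 with the block with 2 higher. On leaving out 1 library, 0 were lower whichever of the 6 it was, and 0 to 1 were higher, with 0 for each of the 6 but replicate 1 of LPS + PPLG-4V-SA. For LPS + POx-SA against untreated 1 was lower with DESeq2 size factors and without replicate 2 of LPS + POx-SA (range 0 to 1), and for LPS + PPLG-2V-SA against untreated 0 were lower with library totals and on both FPKM scales. The cause of these shifts was not tested.

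Without TMM the median log2 fold change of all genes moved to 0.29 for LPS against untreated, and the calls over all genes moved from 4149 higher and 3833 lower to 5619 and 2537, while the members stood at 52 higher and 1 lower with a median of 2.12. With FPKM + 1 the median of all genes was 0.22 and that of the members 1.81. Promoter motif shares were not run. Low members such as Sapcd2 are limited by depth.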

Other observations

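Counts of other gene lists are set against the shares of all tested genes: 30.8% called higher and 28.4% lower for LPS against untreated, 22.2% and 24.1% for POx-SA against LPS, and 29.2%, 30.8% and 28.0% higher and 30.7%, 30.2% and 27.1% lower for the PPLG polymers against LPS. Of 15 subunits of the APC/C itself 5 rose and 2 fell with LPS, 3 rose and 0 fell with POx-SA against LPS, and 4 rose with each PPLG polymer against LPS while 5, 4 and 4 fell, so that the rises lay near the shares of all genes. Anapc5 rose with each PPLG polymer (1.03 ± 0.16, 0.99 ± 0.16 and 0.88 ± 0.16 on the log2 scale), as did Anapc1, the largest subunit (0.98 ± 0.16, 0.99 ± 0.16 and 0.78 ± 0.16), which also rose with POx-SA (0.62 ± 0.16). Among the subunits that fell was Anapc7 with PPLG-SA (-0.73 ± 0.14). Of 16 transcription factors and cofactors of late cell cycle genes (the DREAM and MuvB complexes and NF-Y) 10 rose and 1 fell with LPS, 3 rose and 6 fell with POx-SA, and 7, 8 and 7 rose and 4, 3 and 3 fell with the PPLG polymers. Mybl2, which encodes B-Myb, rose with LPS (1.22 ± 0.12) and over LPS with each PPLG polymer (0.52 ± 0.11, 1.12 ± 0.11 and 0.79 ± 0.11). With POx-SA against LPS it was not called (-0.05 ± 0.11). Tfdp1 rose over LPS with each PPLG polymer (1.04 ± 0.09, 1.51 ± 0.09 and 1.25 ± 0.09), and E2f5 fell with POx-SA (-1.36 ± 0.11). Nfya, the DNA-binding subunit of NF-Y, rose with LPS (1.39 ± 0.08) and fell with POx-SA (-0.61 ± 0.08) and with each PPLG polymer (-0.93 ± 0.08, -0.75 ± 0.08 and -0.84 ± 0.08) against LPS.

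Of 7 genes of the p53 and p21 arm, which holds cells out of the cycle, 5 rose and 1 fell with LPS, against 30.8% and 28.4% of all genes. With POx-SA against LPS 4 rose and 1 fell, against 22.2% and 24.1%. With the PPLG polymers against LPS 3, 2 and 2 rose, against 29.2%, 30.8% and 28.0%, and 3, 4 and 3 fell, against 30.7%, 30.2% and 27.1%. Sesn2, with the smallest p of these genes for LPS against untreated, rose with LPS (1.85 ± 0.14). Cdkn1a, which encodes the cyclin-dependent kinase inhibitor p21, was the 1 that fell with LPS (-0.99 ± 0.17). Against LPS it fell further with each PPLG polymer (-0.53 ± 0.16, -0.66 ± 0.17 and -0.63 ± 0.16) and was not called with POx-SA (0.21 ± 0.16). Gadd45a, a stress-induced gene of growth arrest, fell with POx-SA (-1.74 ± 0.16) and with each PPLG polymer (-2.74 ± 0.17, -3.94 ± 0.18 and -2.86 ± 0.17). Ccng1 instead rose with LPS (0.42 ± 0.10). Over LPS it rose with POx-SA (0.62 ± 0.10) and with each PPLG polymer (1.58 ± 0.10, 1.20 ± 0.10 and 1.53 ± 0.10). Trp53 rose over LPS with POx-SA (1.00 ± 0.10), with PPLG-2V-SA (1.22 ± 0.10) and with PPLG-4V-SA (0.83 ± 0.10). Its value with PPLG-SA is not given here, which does not mean that it was unchanged. For PPLG-4V-SA against PPLG-SA 0 of the 7 genes were called. Adjusted p-values behind these calls are from edgeR over 13482 genes, and the relation of these genes to the members was not tested.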
